A study of Mus musculus with 16 samples.

Results

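The 4 whole mouse embryos at embryonic day 9.5 (E9.5) that lacked KAT6A and carried a *Kat6b* transgene, *Kat6a-/-Tg(Kat6b)*, were compared with the 4 wild-type *Kat6a+/+Kat6b+/+* embryos, 8 of the 16 embryos sequenced. Members were chosen by the genotype label of each embryo. The other 8 embryos were 4 of *Kat6a-/-Kat6b+/+* and 4 of *Kat6a+/+Tg(Kat6b)*, and they entered the fit and are given where a value needs them. The comparison asks which transcripts still differed from wild type, or newly differed, once the transgene was present without KAT6A.

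The null *Kat6a* allele lacks exons 5 to 9, which lie between 23397662 and 23404403 on chromosome 8 of GRCm39 and make up 770 of 9133 bases of the canonical transcript. *Tg(Kat6b)* is a bacterial artificial chromosome insertion that holds the whole *Kat6b* gene with its flanks, in multiple copies, and it was made from a germline founder. The transgenic line was held on a hybrid of the FVB and BALB/c strains. Both genotypes held 2 males and 2 females. *Kat6a-/-Tg(Kat6b)* embryos came from litters 483 (replicates 1, 2 and 3) and 498 (replicate 4). Wild-type males came from litters 801 and 803 and wild-type females from litters 2597 and 2598. The 2 genotypes shared no litter, so genotype and litter cannot be told apart, and within wild type, sex and litter pair cannot be told apart either.

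KAT6A and KAT6B are related MYST histone acetyltransferases that take the same place in a complex with a BRPF scaffold, ING5 and MEAF6 and acetylate histone H3. KAT6A is known in the embryo for the expression of *Hox*, *Tbx* and *Dlx* patterning genes and for the formation of haematopoietic stem cells, and KAT6B for roles in the developing brain and skeleton.

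Counts on genes summed to between 16091022 and 45665680 in *Kat6a-/-Tg(Kat6b)* and between 14407277 and 23224367 in wild-type embryos. Of 26411 genes, 15679 had enough counts to be tested. The sex labels matched *Xist* in all 16 libraries. Replicates 2 and 4 of *Kat6a-/-Tg(Kat6b)*, both female and of different litters, stood apart from the 2 males of their genotype. Their chi-square per degree of freedom over genes was 1.84 against each other and 8.26 to 12.6 against the males, while the 2 males differed by 4.21 and wild-type pairs by 4.53 to 10.7.

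*Kat6b* mRNA, in TMM-scaled CPM (counts divided by the scaled library size), read 192, 203, 199 and 195 CPM with null allele and transgene, against 47.1, 42.6, 46.9 and 48.2 CPM in wild type. The groups were far apart, and the transgenic values were close to those of *Kat6a+/+Tg(Kat6b)* embryos, which averaged 192 ± 29.7 CPM (SD, n = 4). This was 4.42-fold (log2 fold change 2.14, edgeR FDR = 7.78e-10, where FDR is edgeR's quasi-likelihood p-value after Benjamini-Hochberg adjustment; exact permutation test on CPM, two-sided, p = 0.0286, the smallest that 4 against 4 allow). *Kat6a* read 195, 187, 201 and 184 CPM against 211, 176, 211 and 199 CPM in wild type (exact permutation p = 0.429). These gene-level counts do not resolve the deleted exons and check nothing about the null allele. Of the 14 tested genes of the KAT6 complexes and the MYST enzymes, *Kat6b* was the one called.

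Against wild type, 105 of 15679 tested genes passed an FDR of 0.05 in *Kat6a-/-Tg(Kat6b)* embryos (0.670%), 62 lower (0.395%) and 43 higher (0.274%). The changes were small for the most part: 82 were under 1.5-fold and 10 passed 2-fold, 5 in each direction, and the median absolute log2 fold change of the called genes was 0.35. In comparison, 295 genes (1.88%; 0.938% lower, 0.944% higher) were called in *Kat6a-/-Kat6b+/+* and 22 (0.140%) in *Kat6a+/+Tg(Kat6b)* embryos, each against the same 4 wild-type embryos. At an unadjusted p under 0.05, 1987 genes (12.7%) differed. The 4 and 4 embryos did not overlap for 81 of the 105 genes, against 1113 of all tested genes (7.10%), and for 30 genes, 17 lower and 13 higher, all 4 *Kat6a-/-Tg(Kat6b)* embryos lay beyond every one of the 12 others, against 173 of all tested genes (1.10%; 0.434% lower, 0.670% higher). Leaving out 1 of the 2 female *Kat6a-/-Tg(Kat6b)* embryos brought the number to 39 (replicate 2) or 41 (replicate 4). It was 62 when wild-type replicate 1 was left out, and 210 when *Kat6a+/+Tg(Kat6b)* replicate 1 was. Within sex it was 17 in males and 1520 in females, and with the wild-type embryos of litters 801 and 803 alone it was 31, or of 2597 and 2598 alone 241. *Kat6b*, *Nek3* and *Rbpj* were called in all 34 other fits, and *Wipi1* in the 33 that its counts could enter.

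**Figure D1:**
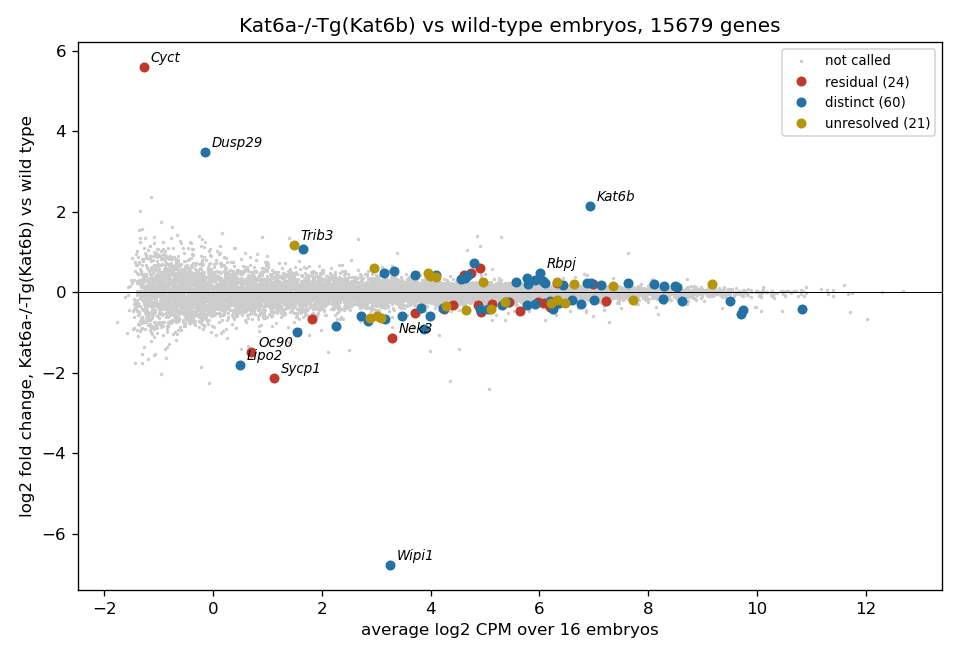
Log2 fold change of each of 15679 genes in *Kat6a-/-Tg(Kat6b)* against wild-type embryos (y axis) by average log2 CPM (x axis). Coloured points are the 105 called genes by class; grey points were not called. *Wipi1* at -6.78 and *Cyct* at 5.58 are the extremes, and most coloured points lie within 1 of 0.

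The 105 genes were sorted by their behaviour in embryos that lacked KAT6A without the transgene. The rule makes a gene residual when it was also called in the same direction in *Kat6a-/-Kat6b+/+* embryos, distinct when it was not residual and was called against those embryos in the same direction, and unresolved otherwise. There were 24 residual genes, 18 lower and 6 higher, 60 distinct genes, 33 lower and 27 higher, and 21 unresolved genes, 11 lower and 10 higher. As both comparisons share the 4 wild-type embryos, these counts describe which genes passed both and were not tested as an overlap. Between the 2 null genotypes 1119 genes were called (7.14%), 3.74% lower and 3.39% higher with the transgene. Of the residual genes, 3 also differed between the 2 null genotypes, *Dlx6os1*, *Cyp26b1* and *Skida1*, all nearer to wild type with the transgene.

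**Figure D2:**
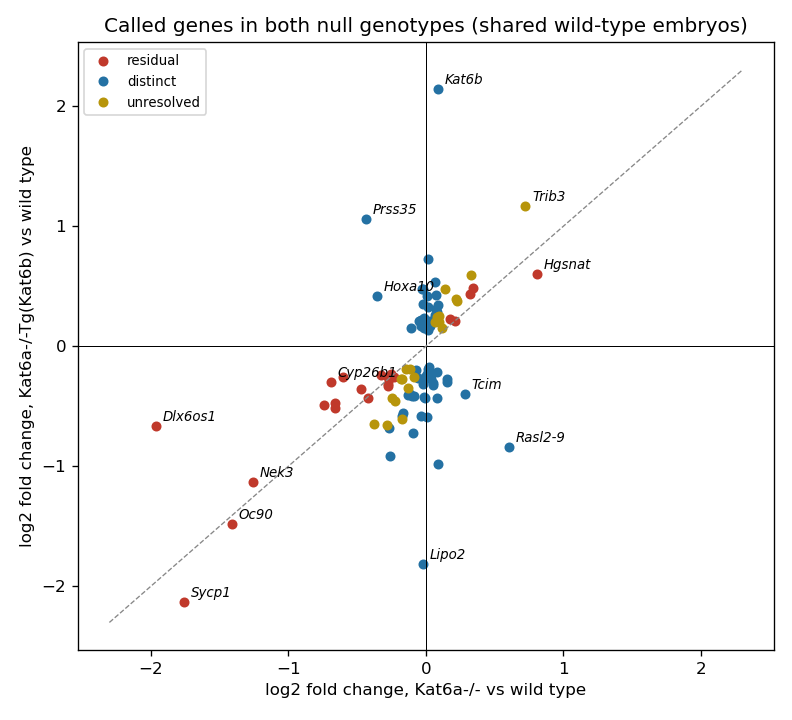
Log2 fold change against wild type of the 102 called genes under 2.5 in absolute value, in *Kat6a-/-Kat6b+/+* (x axis) and *Kat6a-/-Tg(Kat6b)* embryos (y axis); the dashed line marks equal change. Residual genes such as *Nek3* (-1.26 and -1.13) lie near the line and distinct genes such as *Rasl2-9* (0.60 and -0.84) off it. The axes share the wild-type embryos, so a common error in them moves points along the line.

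Several residual genes lay near *Kat6a* on chromosome 8. *Nek3*, a NIMA-related kinase that starts at 22618299, was at 5.66, 6.76, 7.46 and 8.52 CPM in *Kat6a-/-Tg(Kat6b)* and at 15.3, 15.6, 15.2 and 13.5 CPM in wild-type embryos. The groups were separate, and *Kat6a-/-Kat6b+/+* embryos averaged 6.20 ± 0.648 CPM. *Nek3* fell by 54.4% (log2 fold change -1.13 ± 0.113 (SE), edgeR FDR = 5.08e-06). *Hgsnat*, the lysosomal enzyme that acetylates heparan sulphate, rose to 32.7, 32.0, 29.3 and 36.9 CPM from 19.9, 23.3, 21.5 and 19.2 CPM (log2 fold change 0.61, edgeR FDR = 0.000194). It also rose in *Kat6a-/-Kat6b+/+* embryos (0.81) and in *Kat6a+/+Tg(Kat6b)* embryos (0.43, edgeR FDR = 0.0153). *Smim19* fell in both null genotypes (-0.51 and -0.66). Within 20 Mb of *Kat6a*, 5 of 172 tested genes with a position were called (2.91%), against 92 of 15167 elsewhere (0.607%), and the nearest neighbours in RefSeq place *2610005L07Rik* (-0.49), *6820431F20Rik* (-0.47) and *Fut10* (0.73) there too. *Tcim* (-0.40) and *Atp11a* (0.25) were the other called genes of this interval. Both null genotypes carried the null allele, so KAT6A loss and sequence linked to that allele cannot be told apart for its residual genes. Near *Kat6b* on chromosome 14, *Dusp29*, a phosphatase gene whose 3′-most annotated base lies just past the end of *Kat6b*, was called. The 3′ flank of the insert, as the paper gives it, reaches over most of *Dusp29*. Reads from copies on the transgene and from the gene's own locus cannot be told apart. *Dusp29* counts were 39, 39, 31 and 65 in *Kat6a-/-Tg(Kat6b)* and 1, 2, 4 and 3 in wild-type embryos. The ratio of summed scaled counts was 11.7 (95% exact interval 6.23 to 24.9, counting error only), and *Kat6a+/+Tg(Kat6b)* embryos averaged 1.35 CPM, where *Dusp29* was also called.

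The other residual genes with the largest change were expressed at low levels. *Sycp1*, a synaptonemal complex protein of meiosis, was at 0.923, 1.33, 0.678 and 1.16 CPM against 5.53, 4.14, 3.75 and 4.12 CPM (log2 fold change -2.13, edgeR FDR = 0.0213), and *Kat6a-/-Kat6b+/+* embryos averaged 1.27 CPM. *Oc90*, a protein of the otoconia of the inner ear, was at 1.30, 0.489, 0.432 and 0.549 CPM against 2.39, 1.49, 3.44 and 3.30 CPM (-1.48, edgeR FDR = 0.0135). *Cyct*, the testis cytochrome c, had 12, 12, 9 and 17 counts against 0, 0, 1 and 0 (edgeR FDR = 0.00927). Its summed scaled counts were 33.7 times higher, with a 95% exact interval of 5.78 to 1359 for counting error. *Kat6a-/-Kat6b+/+* embryos were also high, at a mean of 0.699 CPM. *Ccdc80*, a matrix protein, rose by 0.48 (edgeR FDR = 0.000474), and *As3mt*, an arsenic methyltransferase, by 0.43 (edgeR FDR = 0.00359). Of the 23 tested genes of germ cells and meiosis, *Sycp1* was the one lower and *Cyct* the one higher. These 2 genes were 8.7% of that list, against 0.670% called of all tested genes.

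Retinoic acid is made by *Aldh1a2* and broken down by *Cyp26b1*, and both were residual. *Aldh1a2* was at 64.2, 59.6, 61.2 and 60.4 CPM in *Kat6a-/-Tg(Kat6b)* and at 78.4, 75.2, 74.0 and 69.8 CPM in wild-type embryos. The 2 groups did not overlap, while *Kat6a-/-Kat6b+/+* embryos averaged 61.6 and *Kat6a+/+Tg(Kat6b)* embryos 74.4 CPM. *Aldh1a2* fell by 17.4% (log2 fold change -0.28, edgeR FDR = 0.00444), with -0.29 in males and -0.26 in females. *Cyp26b1* was at 34.0, 31.7, 33.3 and 33.3 CPM against 41.4, 40.7, 39.4 and 41.9 CPM (-0.30, edgeR FDR = 0.0427), and at 25.2 CPM on average without the transgene (-0.69). Of the 19 genes of the retinoic acid list, these 2 were called (10.5%, against 0.670% of all tested genes). The list had 14 genes below 0, with a median of -0.07 against -0.003 over all tested genes. The list summed to 1113 to 1181 CPM against 1231 to 1309 CPM in wild type. The 250 bases upstream of the canonical start site of each gene are printed 5′ to 3′ on the gene's strand, from GRCm39, to show what lies at the starts of the called pair. *Aldh1a2* on the plus strand is chr9:71122380-71122629 and *Cyp26b1* on the minus strand is chr6:84565966-84566215. Capitals mark the half-sites AGGTCA or AGTTCA of retinoic acid receptor elements on either strand, which 23.3% of the 21584 protein-coding promoters of this length hold.
Aldh1a2: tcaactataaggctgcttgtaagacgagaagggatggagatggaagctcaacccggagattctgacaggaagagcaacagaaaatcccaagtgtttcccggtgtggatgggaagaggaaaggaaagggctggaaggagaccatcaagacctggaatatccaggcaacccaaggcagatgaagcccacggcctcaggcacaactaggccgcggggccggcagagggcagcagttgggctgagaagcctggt
Cyp26b1: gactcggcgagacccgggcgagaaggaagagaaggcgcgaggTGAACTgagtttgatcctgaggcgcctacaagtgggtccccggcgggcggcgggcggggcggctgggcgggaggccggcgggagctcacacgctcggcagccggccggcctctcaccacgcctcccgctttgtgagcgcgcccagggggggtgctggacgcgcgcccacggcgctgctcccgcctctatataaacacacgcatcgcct

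The *Cyp26b1* window holds 1 match and the *Aldh1a2* window none, so the letters alone do not separate the pair from other promoters.

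No *Hox* gene, a family that sets position along the body axis, was called lower. Of 38 tested members, 3 were called (7.89%, against 0.670% of all tested genes), all higher. The family had 29 genes above 0 and 9 below (median 0.09, against -0.003 over all tested genes). DESeq2 called 4 and limma-voom 2, and 13 had an unadjusted p under 0.05. The share with such a p over all tested genes was 12.7%. *Hoxa10*, a posterior member, was at 20.4, 22.2, 18.9 and 21.3 CPM against 16.5, 13.9, 16.5 and 14.8 CPM (log2 fold change 0.42, edgeR FDR = 0.0112). It had been lower in *Kat6a-/-Kat6b+/+* embryos (-0.35, mean 12.2 CPM), and *Kat6a+/+Tg(Kat6b)* embryos averaged 19.5 CPM (0.33, edgeR FDR = 0.0785). *Hoxc9* was at 15.1, 13.3, 15.6 and 14.6 CPM against 12, 9.61, 13 and 12.4 CPM (0.42, edgeR FDR = 0.0460), with 0.50 in males and 0.14 in females, and was not called in 22 of 34 other fits, limma-voom and those without any 1 wild-type or *Kat6a-/-Tg(Kat6b)* embryo among them. *Hoxc10* was at 27.3, 37.6, 25.5 and 35.6 CPM against 23.9, 27.5, 19.7 and 16.8 CPM (0.35, edgeR FDR = 0.0201). Its groups overlapped, and the change was 0.99 in females and 0.05 in males. The more anterior *Hoxb3* was at 66.8, 63.2, 65.5 and 62.2 against 72.4, 70.9, 73.0 and 79.6 CPM (-0.17, edgeR FDR = 0.0564) and had been -0.39 without the transgene. The groups did not overlap for *Hoxb3*, and the paper describes a partial rescue of this gene. *Cdx2*, an upstream regulator of posterior identity, gave 0.24 (edgeR FDR = 0.337). The start regions of *Hoxa10* and *Hoxc9* are shown because both genes moved in the same direction. From GRCm39, they are chr6:52211920-52212169 on the minus strand (*Hoxa10*) and chr15:102884558-102884807 on the plus strand (*Hoxc9*). Capitals mark TTTAT, the core letters of CDX binding elements, on either strand, which 36.7% of the 21584 promoters hold.
Hoxa10: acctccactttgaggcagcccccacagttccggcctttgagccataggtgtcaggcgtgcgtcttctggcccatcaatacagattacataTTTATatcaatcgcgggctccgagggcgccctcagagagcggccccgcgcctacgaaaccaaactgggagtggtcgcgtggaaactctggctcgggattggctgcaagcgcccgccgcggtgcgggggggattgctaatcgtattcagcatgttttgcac
Hoxc9: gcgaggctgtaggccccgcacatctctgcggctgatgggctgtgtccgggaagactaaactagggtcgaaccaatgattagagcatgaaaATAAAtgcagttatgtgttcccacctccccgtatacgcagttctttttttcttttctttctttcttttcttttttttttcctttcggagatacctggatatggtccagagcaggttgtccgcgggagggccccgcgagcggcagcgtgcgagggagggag

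The *Hoxa10* and *Hoxc9* windows hold 1 match each, and a match is letters in a window and not a site.

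Of 12 tested *Tbx* genes none was called by edgeR's quasi-likelihood test, 1 by DESeq2 and none by limma-voom. An unadjusted p under 0.05 was found for 4 of them, and for 12.7% of all tested genes. *Tbx1*, a regulator of the pharyngeal arches, was at 15.7, 16.6, 16.2 and 18.9 against 19.4, 19.9, 20.1 and 20.9 CPM (-0.29, edgeR FDR = 0.094), where it had been -0.65 without the transgene. The groups did not overlap for *Tbx1*. *Tbx15* gave -0.57 (edgeR FDR = 0.181), *Tbx2* -0.11, *Tbx3* -0.11 and *Tbx5* 0.15. The FDR here is over all tested genes. With correction within the *Tbx* family, the paper reports *Tbx1* and *Tbx15* as still lower than in wild type. Of 9 tested *Dlx* genes 1 was called (11.1%, against 0.670% of all tested genes), the antisense *Dlx6os1*. It was at 2.64, 2.27, 3.21 and 2.92 against 4.05, 3.98, 5.00 and 6.32 CPM (-0.66, edgeR FDR = 0.0487), against -1.96 without the transgene. The difference between the 2 null genotypes, 1.29, was itself called (edgeR FDR = 0.000167). Reads from *Dlx6os1* and its sense neighbours cannot be told apart where the strand was not kept.

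Of 45 tested genes of neural tube progenitors and neurons, 2 were called (4.44%, against 0.670% of all tested genes), both lower. The list had 41 genes below 0 (median -0.13, against -0.003 over all tested genes). Its median was -0.25 without surrogate variables. Within sex the median of the list was -0.57 in females and 0.04 in males. *Tubb3*, the neuronal beta tubulin, was at 103, 68.7, 105 and 69.8 CPM against 124, 94.4, 117 and 136 CPM (-0.30, edgeR FDR = 0.00982), and *Map2*, a dendrite microtubule protein, at 51.1, 36.3, 47.8 and 36.6 against 56.0, 50.6, 67.1 and 66 CPM (-0.32, edgeR FDR = 0.00554). In both genes the groups overlapped, and both female *Kat6a-/-Tg(Kat6b)* embryos were low. *Map2* was not called in 7 of 34 other fits, those without surrogate variables, with 1 and with sex as a covariate among them. The log2 fold change of *Tubb3* was -0.86 in females and -0.07 in males and that of *Map2* was -0.86 and -0.10, and the difference between the sexes was not tested. *Pou3f3* and *Pou3f2*, brain transcription factors, were residual. *Pou3f3* was at 68.8, 52.3, 66.6 and 53.0 CPM against 82.7, 72.5, 89.2 and 92.6 CPM (-0.36, edgeR FDR = 0.000296), with -0.78 in females and -0.20 in males, and was not called without surrogate variables, with 1, or with sex as a covariate. *Pou3f2* fell by 0.26 (edgeR FDR = 0.0146). *Hes6*, a Hes-family transcription factor gene, was separate in the 4 and 4, at 35.7, 32.5, 35.1 and 30.2 against 42.1, 42.7, 41.3 and 43.7 CPM (-0.32, edgeR FDR = 0.00926). *Islr2* (-0.65) and *Kcnn1* (-0.65), a neuronal surface protein and a potassium channel, were also lower, and *Ntn1*, the axon guidance ligand, fell by 0.23. The neural list summed to 1876, 1551, 1864 and 1526 CPM in replicates 1 to 4 of *Kat6a-/-Tg(Kat6b)* and to 2011, 1740, 2030 and 2067 CPM in wild type. In bulk RNA, fewer neural cells and less RNA per cell cannot be told apart.

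**Figure D3:**
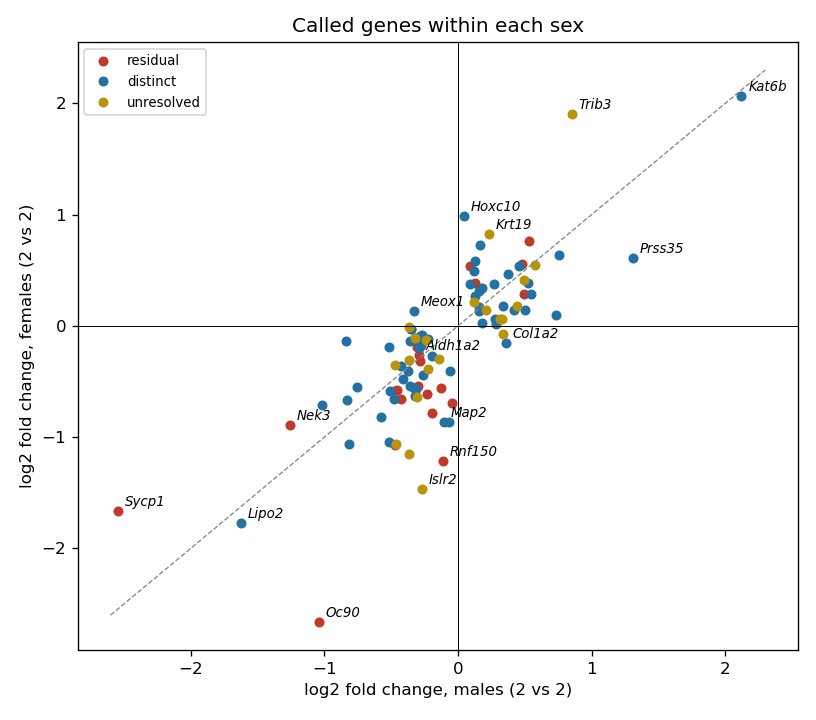
Log2 fold change in males (2 embryos against 2, x axis) and in females (y axis) for the 102 called genes under 2.5 in absolute value. The dashed line marks equal change. *Map2* and *Islr2* lie far below it, *Hoxc10* and *Krt19* above it, and *Nek3* and *Aldh1a2* near it.

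*Rbpj*, the DNA-binding effector of Notch signalling, was at 83.2, 74.0, 84.9 and 78.8 CPM against 58.2, 58.8, 60.5 and 56.8 CPM. Every *Kat6a-/-Tg(Kat6b)* embryo was above the other 12 embryos, and the mean was 57.8 CPM without the transgene and 61.6 CPM with the transgene alone, neither called against wild type. *Rbpj* rose by 39.3% (log2 fold change 0.48, edgeR FDR = 1.48e-06), and it was 0.52 in males and 0.38 in females. The Notch list, 29 tested genes, otherwise held 1 more call, *Hes6*. With *Rbpj* this was 6.9% of the list, against 0.670% of all tested genes. *Ccnd2*, cyclin D2, was at 682, 663, 672 and 604 against 782, 770, 781 and 751 CPM (-0.22, edgeR FDR = 0.00532), and *Kat6a+/+Tg(Kat6b)* embryos were also lower (675 CPM, edgeR FDR = 0.0268). *Cdkn1c*, a cell cycle inhibitor and imprinted gene, fell by 0.18 (edgeR FDR = 0.0444), with overlap. *Irs1*, the insulin receptor substrate, fell by 0.42 (edgeR FDR = 0.00073).

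*Wipi1*, a WD-repeat autophagy protein on chromosome 11 (109464156 to 109502793), was almost absent. It had 0, 3, 3 and 5 counts in *Kat6a-/-Tg(Kat6b)* embryos and 198, 150, 422 and 276 counts in wild type. Wild-type scaled counts were 141 times higher when summed (95% exact interval 78.4 to 283, counting error only). All 4 embryos were below the other 12 (edgeR FDR = 1.68e-07). These 4 came from litters 483 and 498, so genotype and litter cannot be told apart for this gene. Among the 12, levels followed litter: wild-type embryos of litters 801 and 803 had 8.62 and 8.28 CPM, *Kat6a-/-Kat6b+/+* embryos of the same litters averaged 7.94 ± 0.833 CPM, wild-type embryos of litters 2597 and 2598 had 18.8 and 18.9 CPM, and *Kat6a+/+Tg(Kat6b)* embryos of those litters averaged 17.5 ± 0.648 CPM. The 35 other tested autophagy genes were not called. *Krt10* (-0.68) and *Abca5* (-0.58) on chromosome 11 also split in wild type between the 2 litter pairs, which are also the 2 sexes, at 8.58 and 8.95 against 11.7 and 12.7 CPM and at 11.7 and 10.0 against 14.1 and 14.0 CPM, and both lay below all 12 other embryos. Of 275 windows of 10 Mb, 6 held 3 or more called genes, 22 genes in all. Chromosomes 8 (12 of 779), 19 (8 of 518) and 15 (9 of 604) had 1.49% to 1.54% of their tested genes called, and none was called of 418 on chromosome 18.

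**Figure D4:**
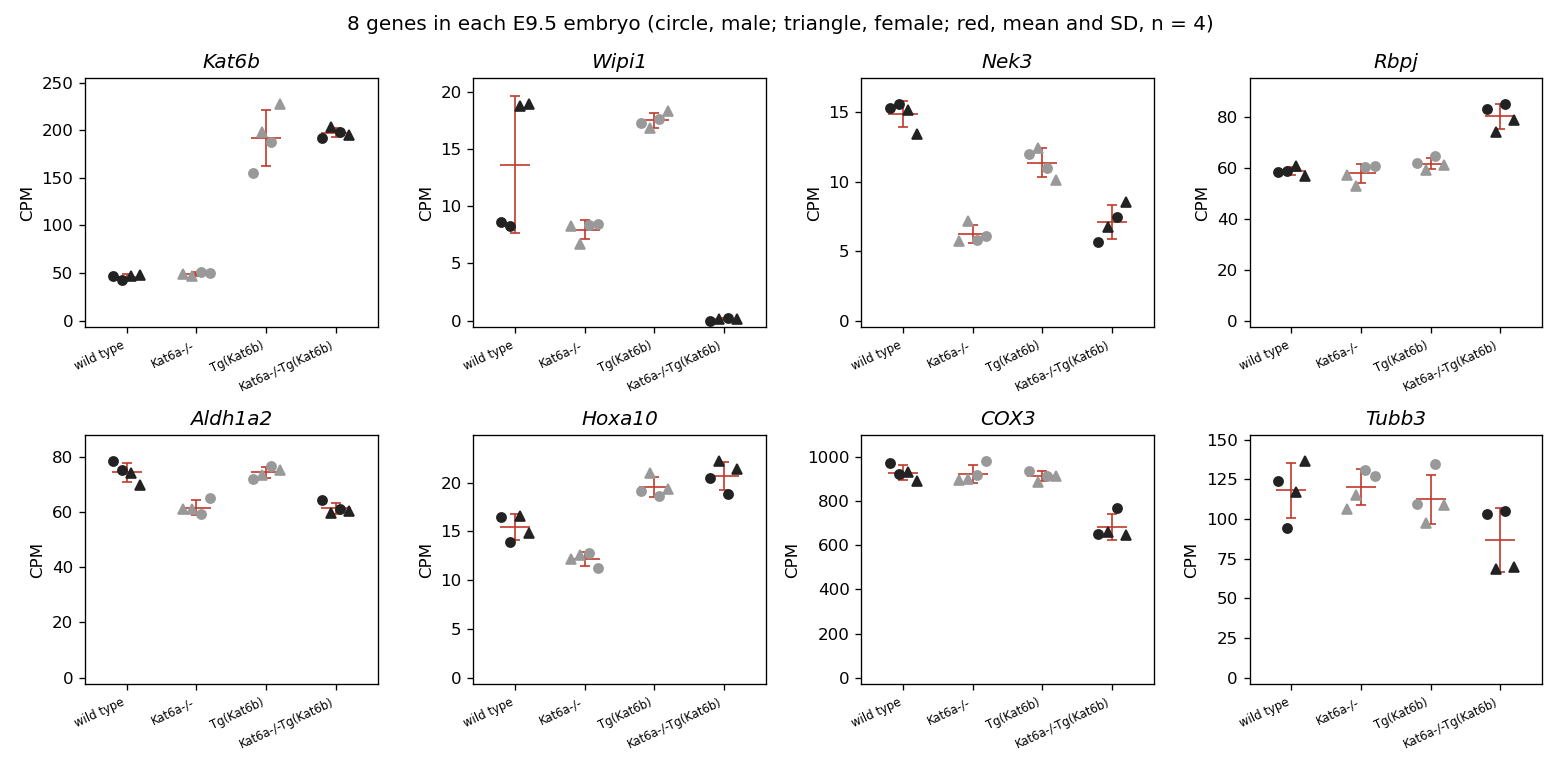
CPM of 8 genes in each of the 16 embryos by genotype, on axes from 0 (circles males, triangles females, red bars mean and SD, n = 4). *Kat6b* is raised in both transgenic genotypes and *Nek3* is low in both null genotypes. *Wipi1* is near 0 and *Rbpj* is raised only in *Kat6a-/-Tg(Kat6b)* embryos, and *Tubb3* is low in the females of that genotype. The *Kat6a-/-Tg(Kat6b)* embryos shared no litter with wild type, so genotype and litter cannot be told apart.

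Of 72 tested collagens and matrix genes, 5 rose and 1 fell (8.33% called, against 0.670% of all tested genes). The list had 37 genes below 0 and 35 above (median -0.005, with 0.06 in males and -0.13 in females). *Lum*, lumican, was at 30.1, 29.2, 37.5 and 28.9 against 21.9, 24.3, 24.7 and 22.6 CPM (0.42, edgeR FDR = 0.0146), and *Col4a5*, a basement membrane collagen, at 77.2, 69.9, 81.0 and 70.7 against 63.0, 62.0, 61.2 and 63.3 CPM (0.28, edgeR FDR = 0.0112). For both, all 4 *Kat6a-/-Tg(Kat6b)* embryos lay above the other 12, while *Col3a1* (0.20) and *Col1a2* (0.20), fibrillar collagens, overlapped between the groups, with 0.34 and 0.36 in males and -0.07 and -0.15 in females, and the difference between the sexes was not tested. *Col1a2* was not called in 21 of 34 other fits and *Col3a1* in 12. *Col15a1* fell by 0.32. Of 34 tested genes of liver bud, gut and endoderm, 2 keratin genes were called by edgeR, *Krt18*, which rose by 0.31 with overlap between the groups (edgeR FDR = 0.0213; 0.72 in females and 0.17 in males) and *Krt19*, by 0.38 (edgeR FDR = 0.0369; 0.83 and 0.23). These 2 genes were 5.88% of the list, against 0.670% of all tested genes. They were not called in 12 and 13 of 34 other fits. The list had 20 genes above 0 and 14 below (median 0.02; 0.36 in females and 0.04 in males) and summed to 402.2 to 468.6 CPM against 324.5 to 398.5 CPM. *Lum* is also on the list of amnion and decidua, whose 13 tested genes had a median of 0.31, 11 above 0, and summed to 486.3 to 547.6 against 417.9 to 445.3 CPM in wild type. Its part in the result was not tested.

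**Figure D5:**
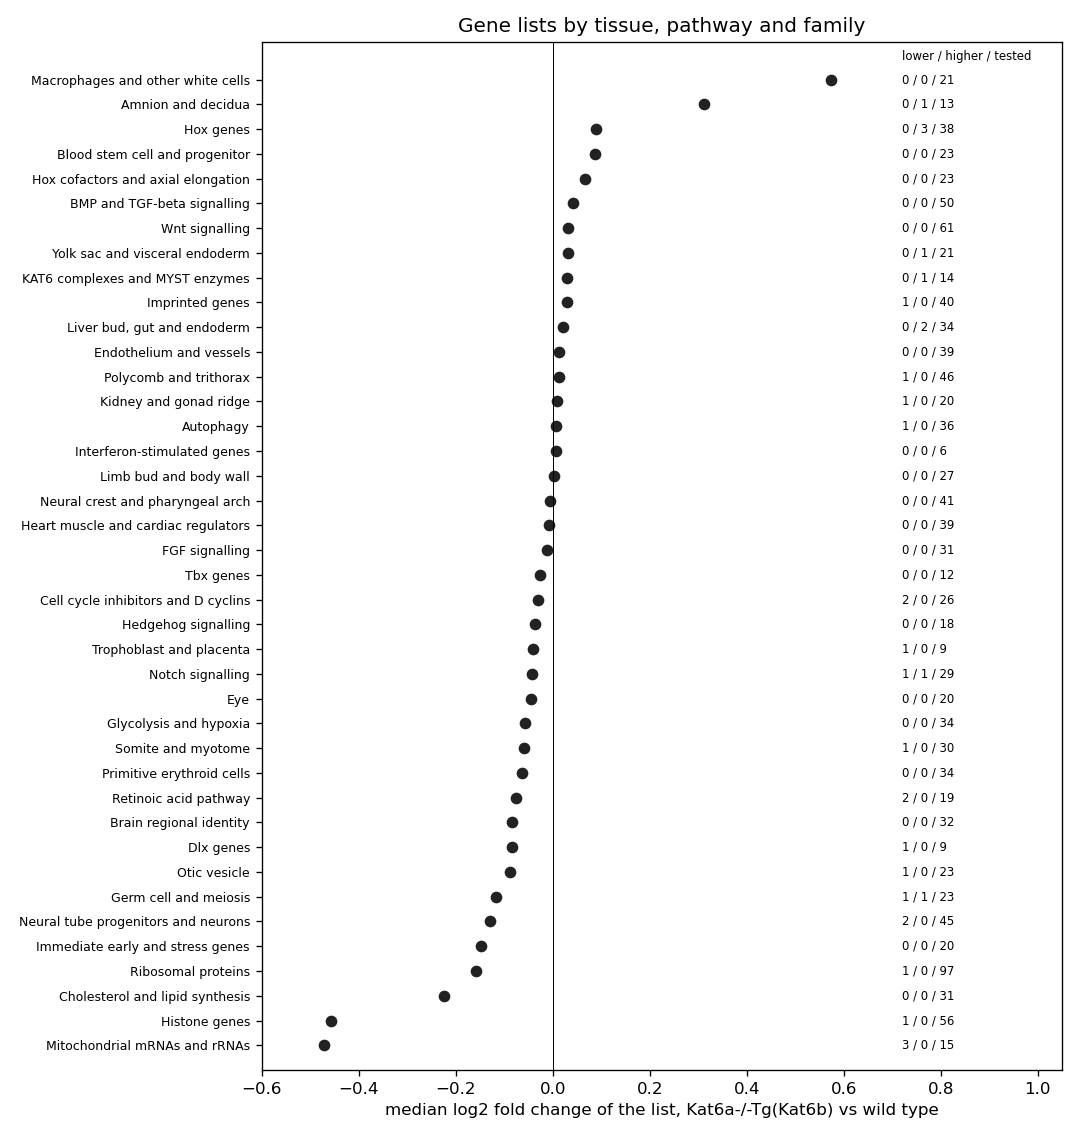
Median log2 fold change of 40 gene lists in *Kat6a-/-Tg(Kat6b)* against wild-type embryos, with the number of members lower, higher and tested at the right. Lists built from symbol prefixes and a list of 2 mitochondrial genes are not drawn. Of those drawn, mitochondrial mRNAs and rRNAs (-0.47) and histone genes (-0.46) are lowest, and macrophage genes (0.57, none called) are highest. The macrophage median was 0.24 without surrogate variables.

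Tissues with no called gene included heart muscle (39 tested), neural crest and pharyngeal arch (41), endothelium (39), primitive erythroid cells (34), blood stem cells and progenitors (23) and limb bud and body wall (27), all by edgeR's quasi-likelihood test. In that order, 2, 9, 6, 3, 5 and 6 of them had an unadjusted p under 0.05, DESeq2 called 0, 1, 2, 0, 1 and 2, and limma-voom called none. Over all tested genes, edgeR called 0.670% and 12.7% had an unadjusted p under 0.05. At that share a list of this size can hold no call, so these counts do not show that the tissues were unchanged. The medians of these lists lay between -0.06 and 0.09. Macrophage genes, 21 tested with 19 above 0, had a median of 0.57 (0.73 in males, -0.15 in females). Without surrogate variables the median was 0.24. None was called by edgeR or limma-voom and 1 by DESeq2, and 5 had an unadjusted p under 0.05. The list summed to 41.6 to 55.9 against 37.9 to 52.3 CPM. In the somites *Meox1*, a segment transcription factor, fell by 0.19 (edgeR FDR = 0.0239), but with -0.33 in males and 0.13 in females. The *Trib3* stress kinase was at 4.39, 5.16, 3.08 and 4.46 against 1.87, 2.37, 0.848 and 1.85 CPM (1.16, edgeR FDR = 0.0369), and *Prss35*, a serine protease, at 4.96, 4.09, 8.08 and 4.00 against 2.61, 2.54, 2.46 and 2.88 CPM (1.06, edgeR FDR = 0.0222). After *Wipi1*, the distinct genes with the lowest log2 fold change were *Lipo2*, a lipase family member (-1.81), *Sec61g*, a translocon subunit (-0.98), *Dynlt1a*, a dynein light chain (-0.91), *Rasl2-9*, a Ran-like gene (-0.84), and *Gm3716* (-0.73). *Lipo2*, *Dynlt1a*, *Sec61g* and *Rpl3* have close relatives or retrocopies in the genome, so their values are uncertain where reads are shared.

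Among residual genes with regulatory roles, *Foxc2*, a forkhead factor of paraxial mesoderm, vessels and kidney, was at 37.7, 44.9, 36.7 and 43.8 against 44.8, 50.6, 46.0 and 44.2 CPM (-0.26, edgeR FDR = 0.0346). The groups overlapped, with -0.35 in males and -0.02 in females, and it was -0.28 without the transgene. *Skida1* was at 56.7, 62.2, 60.2 and 60.9 against 71.6, 73.3, 73.0 and 67.0 CPM (-0.25, edgeR FDR = 0.0155), and at a mean of 46.9 CPM without the transgene (-0.60). It moved part of the way towards wild type, as did *Cyp26b1* and *Dlx6os1*. *Tle5*, a Groucho-family corepressor, fell by 0.24 (edgeR FDR = 0.0393), with -0.69 in females and -0.04 in males. *Rnf150*, a ring-finger gene, fell by 0.43 (edgeR FDR = 0.0427), with -1.21 in females and -0.11 in males, and these 2 genes had low values in both female *Kat6a-/-Tg(Kat6b)* embryos. *Itga3*, a laminin-binding integrin, rose by 0.23 (edgeR FDR = 0.0146; 0.54 in females and 0.09 in males, and not called without surrogate variables or with sex as a covariate) and *Limd2* by 0.21 (edgeR FDR = 0.0293). Of 34 other fits, *Foxc2* and *Rnf150* were each not called in 22 and *Tle5* in 17, leaving out a single embryo among them. These genes and the distinct genes of the next paragraph were picked after their values were seen, apart from *Foxc2* and *Itga3*.

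Distinct genes with a role in chromatin or transcription included *Dpf1*, a subunit of the neuronal BAF complex, at 15.9, 15.4, 15.3 and 16.8 against 19.3, 22.8, 20.1 and 21.7 CPM (-0.40, edgeR FDR = 0.0135), with all 4 embryos below the other 12. *Gtf2a1*, a subunit of TFIIA, fell by 0.30 (edgeR FDR = 0.0146), and *U2af1*, a splicing factor, by 0.41 (edgeR FDR = 0.0213). *Setd7*, a lysine methyltransferase, rose by 0.21 (edgeR FDR = 0.0331). Among other distinct genes, *Podxl*, podocalyxin, rose by 0.22 (edgeR FDR = 0.0155), *F11r*, a tight junction protein, by 0.26 (edgeR FDR = 0.0274; 0.58 in females and 0.13 in males, and not called in 12 of 34 other fits), and *Arhgap29* by 0.24 (edgeR FDR = 0.00929). *Arhgap29* was at 130, 134, 133 and 144 against 118, 114, 113 and 108 CPM, above all 12 other embryos. Of the 105 called genes, 102 moved in the same direction in both sexes, and *Col3a1*, *Col1a2* and *Meox1* did not. For 22 the values in the 2 sexes differed by over 0.5 on the log2 scale, and for 15 of these the female change was the larger.

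Of 15 mitochondrially encoded mRNAs and rRNAs, 3 fell by edgeR's quasi-likelihood test (20%, against 0.670% called of all tested genes). Limma-voom called 3 and DESeq2 11. All 15 had an unadjusted p under 0.05, against 12.7% of all tested genes. *COX3*, a subunit of cytochrome oxidase, was at 652, 659, 772 and 648 CPM against 973, 923, 934 and 891 CPM (-0.44, edgeR FDR = 3.29e-06), and *Kat6a-/-Kat6b+/+* and *Kat6a+/+Tg(Kat6b)* embryos averaged 925 and 914 CPM. *ND1* (-0.42, edgeR FDR = 0.0146) and *COX2* (-0.55, edgeR FDR = 0.0460) were also called, and *TrnP*, a mitochondrial transfer RNA, gave -0.58. All 15 mitochondrial mRNAs and rRNAs were below 0, and their sum was 9352 to 12790 CPM against 13750 to 16230 CPM. Ribosomal protein genes had a median of -0.16, 76 of 97 below 0, with 1 called by edgeR, *Rpl3*. The share called by edgeR was 1.03%. Limma-voom called 1 of the 97 and DESeq2 8, and 39 had an unadjusted p under 0.05. Of 56 histone genes, nearly all of them replication-dependent, 53 were below 0 (median -0.46). An unadjusted p under 0.05 was found for 12, and 1 was called by edgeR (1.79%). This was *H1f0* (-0.22, edgeR FDR = 0.0359), a linker histone that is not replication-dependent, and it was not called in 20 of 34 other fits. With gene length trend offsets these medians were -0.40 (mitochondrial), -0.06 (ribosomal) and -0.28 (histones). The part of these lists in the other results was not tested. Ion channels and transporters had 2 called of 344 (0.581%), *Kcnn1* and *Cacna1a*, near the share of 0.670% over all tested genes. None of 444 zinc finger protein genes was called by edgeR's quasi-likelihood test or limma-voom, and 2 were by DESeq2. An unadjusted p under 0.05 was found for 51 of them, near the share of 12.7% over all tested genes. On cholesterol and lipid synthesis, 28 of 31 genes were below 0 (median -0.22; -0.31 in males and 0.04 in females), none called by edgeR, 1 by DESeq2 and 5 at an unadjusted p under 0.05.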

How the data were processed

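Whole E9.5 embryos, 4 per genotype, were sequenced (TruSeq v2, 66 bp paired-end reads), and per the labels the tools were bcl2fastq and featureCounts and the build mm39, while the paper names Rsubread. The authors deposited counts, unnormalised reads per gene. Strand and handling of shared reads are not given in the sources used here. Genes were kept by filterByExpr (minimum count 10, total 15). TMM factors were 0.985 to 1.02. edgeR 4.0.16 (R 4.3.3) fitted a robust quasi-likelihood model to all 16 embryos with genotype and 2 surrogate variables (sva 3.50.0, at most 4, 20 permutations, prior count 2). FDR is over all tested genes. Alternatives used DESeq2 1.42.0 and limma 3.58.1. Scripts were tested on simulated data. Genes were matched to GENCODE by symbol (15340 of 15679). Named genes were *Kat6a*, *Kat6b*, the 12 largest separated decreases and increases, called list members, 8 genes that the study's text discusses and called genes near *Kat6a* or *Kat6b*. Others were named after their values were seen. The start region of a further called *Hox* gene is not reported here. Members and lists were chosen with earlier results of these data known. The list of mitochondrial transcripts was added after the files were seen. The first surrogate variable was negative in every male and positive in every female. P-values measure the spread between the 16 embryos that is left after genotype and the surrogate variables. They do not measure the full spread of the printed CPM, and they do not separate genotype from litter.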

Additional observations from a re-analysis of the deposited data

Results flagged for a closer look

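A highest or lowest embryo stood far from the other 3 of its genotype for 9 of 138 sets of 4 values of named genes (6.52%), where chance gives about 1 in 20. *Lum* was at 37.5 CPM in *Kat6a-/-Tg(Kat6b)* replicate 3 against 28.9 to 30.1 CPM in the others. *Dynlt1a* was at 12.5 CPM in that embryo against 8.41 to 8.49 CPM, *ND1* at 1735 CPM against 1340 to 1373 CPM, and *COX3* at 772 CPM against 648 to 659 CPM. *Oc90* was at 1.30 CPM in replicate 1 against 0.432 to 0.549 CPM. In wild type, *Cyct* was at 0.0446 CPM in replicate 3 and 0 in the others, *Col15a1* at 27.6 CPM in replicate 2 against 35.7 to 36.0 CPM, *Smim19* at 18.9 CPM in replicate 4 against 15.5 to 15.9 CPM, and *Islr2* at 10.2 CPM in replicate 4 against 8.44 to 8.62 CPM.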

How the results depend on the processing

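The number of called genes, 105, was 97 with the replicate number as a block (60 lower, 37 higher, 69 shared), and the deviations of same-numbered embryos correlated at 0.156, 0.0417, -0.0698 and 0.0679, so the numbers do not pair the embryos and the block's 12 unresolved genes (21 without it) carry no more than that. Leaving out each embryo gave 39 to 210 called, 24 to 109 lower, 15 to 101 higher, 10 to 38 residual, 24 to 124 distinct and 4 to 48 unresolved, and 27 of the 105 were called in every such fit. Residual and distinct genes numbered 15 and 37 without surrogate variables, 15 and 39 with 1, and 15 and 39 with sex as a covariate. Length-trend offsets gave 216 called (121 lower, 95 higher; 37 residual, 128 distinct, 51 unresolved), and DESeq2 241 (131, 110; 37, 135, 69). Limma-voom with litter as a random effect gave 95 distinct, and no filter 41 unresolved. With wild type of litters 801 and 803 only there were 31 (20, 11; 6, 17, 8) and of 2597 and 2598 only 241 (140, 101; 86, 95, 60). At an FDR of 0.01 there were 26 (18, 8; 7, 14, 5). Added after seeing the data, males alone gave 17 (8, 9; 4, 10, 3) and females alone 1520 (842, 678; 382, 411, 727). The direction reversed for *Kat6a* (-0.0555 without surrogate variables, -0.0558 with 1 and -0.0557 with sex; -0.00996 with no filter; -0.0538 and -0.0536 in the fits of 2 genotypes with 1 and no surrogate variable; -0.0443 with litters 801 and 803; -0.142 in females; -0.00689 to 0.0686 when each embryo was left out), for *Meox1* (0.0304 with litters 2597 and 2598; 0.133 in females), for *Tbx2* (0.125), *Tbx15* (0.198) and *Cdx2* (-0.294) in males, and for *Col3a1* (-0.074) and *Col1a2* (-0.152) in females. Litter as a fixed term could not be fitted. The cause of these differences was not tested.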

Other observations

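The genes in this paragraph did not pass the test, and they were picked for the values they showed. *Postn*, periostin, was at 78.5, 51.8, 122 and 54.0 CPM in *Kat6a-/-Tg(Kat6b)* and at 27.7, 30.4, 28.0 and 33.6 CPM in wild-type embryos (edgeR FDR = 0.0858), and *Col1a1* at 322, 248, 469 and 239 against 208, 153, 140 and 176 CPM (edgeR FDR = 0.0569). For both, all 4 embryos lay above the other 12. *Hprt*, an X-linked purine salvage enzyme, was at 58.3, 37.5, 63.1 and 35.8 against 18.8, 20.3, 16.8 and 18.3 CPM (edgeR FDR = 0.127). *Col4a6*, an X-linked collagen, was at 0.8 and 0.9 CPM in the 2 male *Kat6a-/-Tg(Kat6b)* embryos and at 32.9 and 31.7 CPM in the 2 females. *Nr1h5* was at 38.5 and 44.1 CPM in the wild-type males (litters 801 and 803) and at 1.8 and 1.9 CPM in the wild-type females (litters 2597 and 2598). *Kat6a-/-Tg(Kat6b)* embryos of both sexes were at 35.7 to 46.9 CPM. Within wild type, sex and litter pair cannot be told apart for this gene.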
